A study of Mus musculus with 11 samples.

Results

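Inner hair cells (IHCs) of the mouse cochlea at embryonic day 16 (E16) were 147 of the 7961 E16 cells and of the 30634 cells of the whole series. They were chosen by measured values: a cell was counted as an IHC when it held at least 1 unique molecular identifier (UMI, a counted mRNA molecule) of Fgf8 and at least 1 UMI of at least 2 of the 4 hair cell genes Myo6, Pou4f3, Ccer2 and Acbd7. Library 1 gave 42 of these cells, library 2 gave 71 and library 3 gave 34. They were compared with 451 other hair cells of the same libraries, which held no UMI of Fgf8 or Tbx2 and a UMI of at least 3 of the 5 genes Atoh1, Myo6, Pou4f3, Ccer2 and Acbd7, and with 7219 non-hair cells, which held no UMI of Fgf8 and a UMI of at most 1 of those 5. The remaining 144 cells entered no class. All animals were wild-type CD1 mice, and no cell was treated or genetically marked. Each E16 library was a single-cell suspension made from the floor of the cochlear duct of several pups, pooled after the roof and lateral wall had been cut away, so a library is a pool and not an animal. Single cells were captured in droplets, and the deposited table gives 1 value per gene and cell. The series also holds E14, P1 and P7 libraries, which are used here only for levels at other ages.

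Hair cells are the sensory receptors of hearing and carry an actin-based bundle on their apical surface. IHCs form a single row on the medial side of the organ of Corti and pass sound signals to the auditory nerve through ribbon synapses, at which otoferlin (Otof) acts as the calcium sensor and vesicular glutamate transporter 3 (Slc17a8) fills the vesicles. Outer hair cells (OHCs) lie lateral to them and amplify sound. Fgf8 is a secreted growth factor made by developing IHCs, and Tbx2 is a T-box transcription factor known for its role in IHC identity. At E16 hair cells are still differentiating from the base of the cochlea towards the apex, so cells of unlike maturity are found side by side.

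Levels are given as UMIs per 1000000 UMIs of the cell (CPM), averaged over the cells of a class within a library, and always in the order library 1, library 2 and library 3. Median depth was 2726.5, 4383 and 4635.5 UMIs per IHC, 2408, 3545 and 3847 per other hair cell and 2458.5, 2482 and 2728 per non-hair cell. Over the class, 3 UMIs are worth 4.66 CPM in the IHCs and 1.83 CPM in the other hair cells. Between E16 libraries, 29 cell barcodes were shared, and 3 of the 147 IHCs carried such a barcode. No doublet caller was run, and 7 IHCs held more than 3000 genes. The IHCs were 3.37% of library 1 (95% exact binomial interval 2.44 to 4.53), 2.52% of library 2 (1.98 to 3.17) and 0.872% of library 3 (0.604 to 1.22). As a share of both hair cell classes they were 24.9%, 25.7% and 22.2%. These intervals cover counting error only, and no test was made between libraries.

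The genes of the gate follow from the rule and were not tested. Fgf8 (chr19:45736798-45742915, minus strand, mm10) stood at 1219.7, 926 and 896 CPM in the IHCs, with a median of 3 UMIs and at most 15 per cell. Tbx2 stood at 151, 111 and 73.7 CPM, and 46 of the 147 IHCs held a UMI of it. Myo6, an unconventional myosin of the hair cell, stood at 711, 815 and 879 CPM in the IHCs and at 882, 834 and 766 CPM in the other hair cells. Atoh1, the transcription factor that starts hair cell formation, stood at 499, 490 and 975 CPM in the IHCs and at 632, 677 and 1463 CPM in the other hair cells, and 105 of the 147 IHCs held a UMI of it. All 4 hair cell genes were found in 111 IHCs, 3 in 27 and only 2 in 9.

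At the edge of the gate, values were as follows, with no test. The 31 IHCs with a single UMI of Fgf8 had a mean of 1186.0 CPM of the calcium buffer Pvalb and 388 CPM of Tecta, which encodes a protein of the tectorial membrane. The 116 IHCs with more UMIs of Fgf8 had 2082.0 and 172 CPM. Just outside, 4 cells with Fgf8 and 1 of the 4 hair cell genes and 11 cells with Fgf8 and none of them held no UMI of Pvalb, and their mean Tecta was 529 and 608 CPM. A further 15 cells had the hair cell genes and Tbx2 but no Fgf8, and entered neither class (700 CPM of Pvalb, 775 CPM of Tecta). Depth set part of the boundary: when every cell was drawn down to 1500 UMIs, 98 of the 147 IHCs still passed the gate, 31 fell into the other hair cells, 7 into the non-hair cells and 11 into no class. Some of the 451 other hair cells can therefore be IHCs in which Fgf8 was not sampled.

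Against the non-hair cells, the IHCs carried hair cell genes that the gate had not used. Of 9128 genes tested with limma, 1017 were higher in the IHCs at an adjusted p of 0.05 or less (11.1% of those tested) and 1008 were lower (11.0%), 22.2% in all, with a median log2 fold change of -0.0394. Cib2, a calcium-binding subunit of the transduction channel complex, stood at 1664, 1791 and 2094 CPM in the IHCs against a mean of 52.1 CPM in the non-hair cells, and Lhfpl5, another subunit, at 781, 877 and 1084 CPM against 1.47 CPM. All 5 mechanotransduction genes tested were higher than in the non-hair cells, as were 20 of 26 hair bundle genes, 15 of 26 hair cell transcription factor genes and 15 of 20 ribbon synapse genes. Lhfpl5, and Loxhd1 with no UMI in the non-hair cells, passed the filter of 10 CPM only through the IHCs. The direction of such genes was fixed in advance, so these counts are no independent support for the label. No IHC library overlapped the non-hair cells in Cib2 or Lhfpl5.

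The comparison with the other hair cells asks which genes go with Fgf8 among hair cells of the same age and library. Of 8816 genes tested, 130 were higher in the IHCs (1.47%) and 114 were lower (1.29%), 244 in all (2.77%), by limma with library as a block. The median log2 fold change of all genes tested was -0.00151, and 1077 genes had an unadjusted p under 0.05. The 3 IHC profiles all lay above the 3 other profiles for 673 genes (7.63%) and all below for 508 (5.76%). Of the genes called, 115 of the 130 higher and 90 of the 114 lower did not overlap in this way. The calls rest on the spread that limma shares between genes of like level (58.7 degrees of freedom per gene, from 6 profiles): without that trend only Brip1 and Zfp503 were called, and without the block 66 genes were. Of the 130 genes higher than in the other hair cells, 96 were also higher than in the non-hair cells, 14 were lower than in the non-hair cells and 20 were not called there. Some genes averaged under 10 CPM in the IHCs or in the other hair cells and passed the filter only through the opposite class. Their direction was fixed in advance. Among genes named below, these include Brip1, Fam19a3, Cabp2, Dnajc5b, Kcna10, Fgf10, Bcas3, Cartpt, Tmem200a, Kcp, Lrrn1, Armc4, Matn4 and Lmod3. On the lower side they include Bcl11b, Bmp2, Zfp503, Efna5, Agpat2, Mfge8, Chst13, Cbfa2t3, Flrt3, Hs3st1 and Tgfb1i1.

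**Figure D1:**
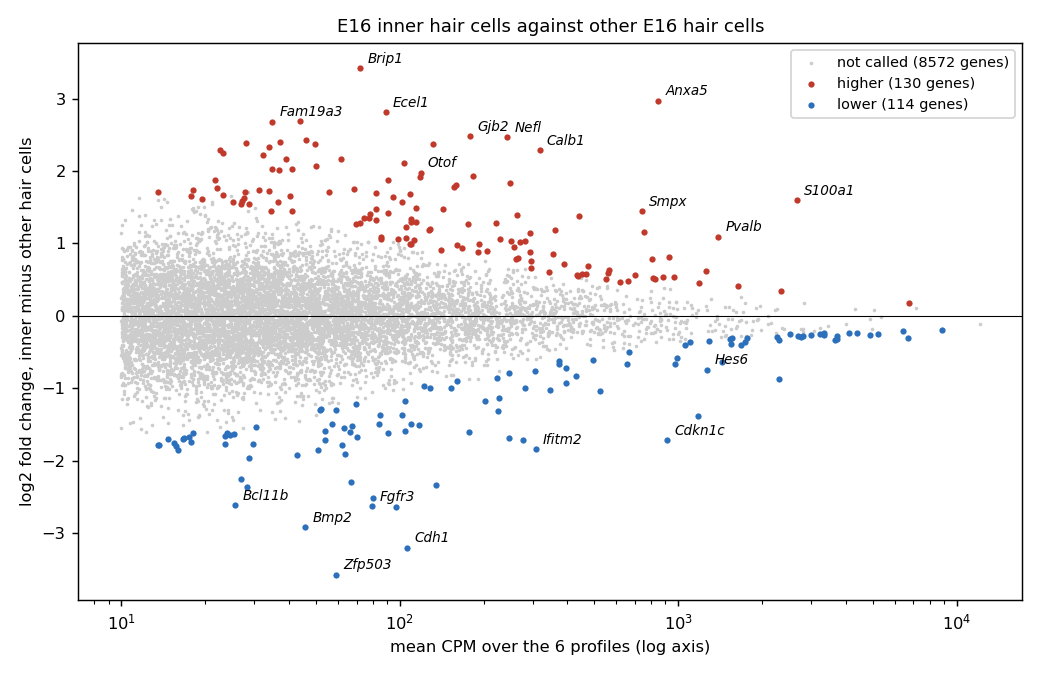
Each point is 1 of the 8816 genes tested, with its mean level over the 6 profiles in CPM (log axis) and its log2 fold change between IHCs and other hair cells; red points were called higher, blue points lower and grey points neither. Anxa5, S100a1 and Pvalb stand out at high levels, and Brip1 and Zfp503 have the largest fold changes in either direction.

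Anxa5 rose most among the genes with more than 1000 CPM in every IHC library and outside the lists. It lies at chr3:36448923-36475894 (minus strand) and encodes annexin A5, a protein that binds phospholipids in the presence of calcium. Anxa5 stood at 1284, 1038 and 2220 CPM in the IHCs and at 129, 171 and 241 CPM in the other hair cells. All 3 IHC libraries lay far above all other hair cell libraries, with a log2 fold change of 2.97 ± 0.15 (limma SE, n = 3 libraries, adjusted p = 1.54e-23). Here and below, ± gives the SE from limma, with a variance largely shared between genes of like level. It is not the spread of that gene alone over the 3 libraries. At 1500 UMIs per cell, 74.1% of the IHCs (95% exact interval 66.3 to 81.0) held a UMI of Anxa5, against 19.5% of the other hair cells (16.0 to 23.5) and 34.2% of the non-hair cells.

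Calcium-binding proteins made up the next group, and most of those called were found in both hair cell classes. Of 16 calcium binding and pump genes tested, 6 were higher and 1 was lower, against 1.47% and 1.29% of all genes tested. The median log2 fold change over the list was 0.05. S100a1, an EF-hand protein, stood at 3675, 3288 and 5102 CPM in the IHCs and at 1227, 1192 and 1498 CPM in the other hair cells (log2 fold change 1.60 ± 0.08, adjusted p = 2.09e-24). Pvalb, parvalbumin, stood at 1615, 1916 and 2188 CPM against 841, 954 and 857 CPM (1.09 ± 0.10, adjusted p = 2.08e-12). Calb1, calbindin, stood at 330, 550 and 732 CPM against 106, 118 and 71.6 CPM (2.29 ± 0.22, adjusted p = 1.37e-11). For these genes the IHC libraries all lay above the others, as they did for 7.63% of all genes tested. Calb1 was as high in the non-hair cells, at a mean of 672 CPM, whereas Pvalb was at 2.05 CPM there. Calb2, calretinin, stood at 111, 148 and 178 CPM against 20.2, 22.7 and 63.5 CPM (1.88 ± 0.32), and the plasma membrane calcium pump Atp2b1 was higher by a log2 fold change of 0.60 ± 0.15. Calm2, a calmodulin gene, was higher at 1530, 1884 and 2254 CPM against 1284, 1370 and 1539 CPM, and Pcp4, which modulates calmodulin, was lower by a small amount (-0.27 ± 0.06). The profiles of Calm2 overlapped between the classes. The calls of Calm2, Atp2b1 and Pcp4 were lost without library 2, and that of Pcp4 also without library 1. Necab2 was lower in all 3 libraries but was not called (-0.94 ± 0.30, adjusted p = 0.0857).

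**Figure D2:**
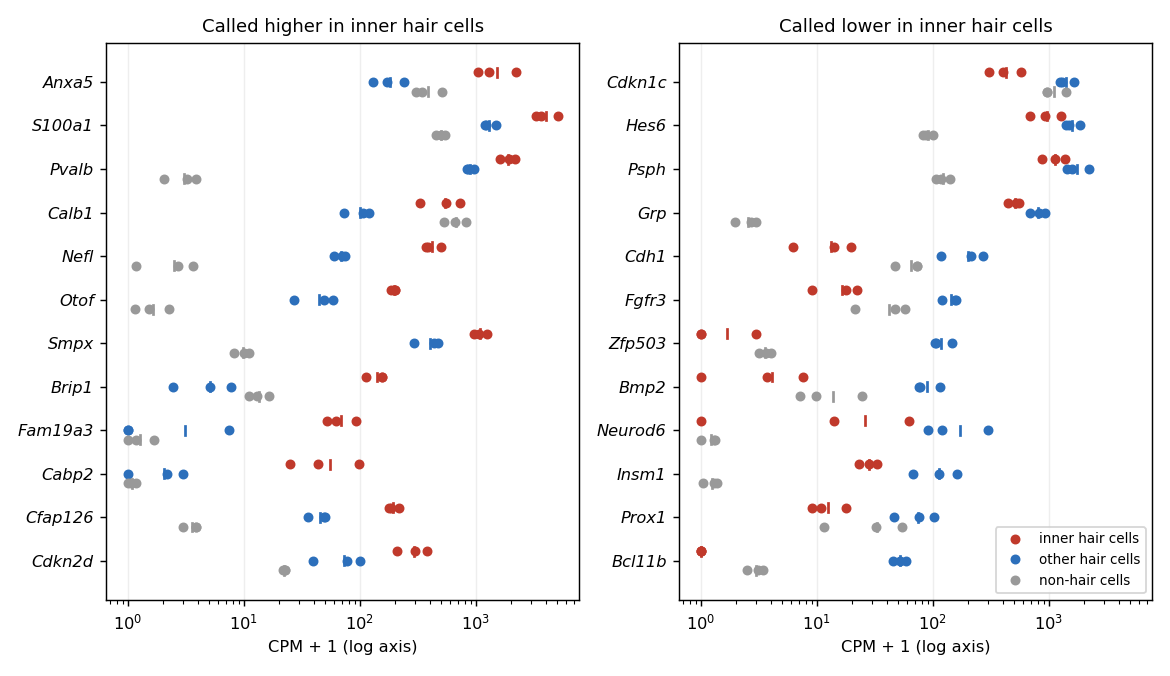
Levels of 12 genes called higher and 12 called lower in the IHCs, as CPM + 1 on a log axis, with 1 point per library for IHCs (red), other hair cells (blue) and non-hair cells (grey) and a tick at the mean of the 3 libraries. These genes were picked from those called, and their red and blue points do not overlap. Over all genes tested, 7.63% lay wholly above and 5.76% wholly below. Bcl11b had no UMI in any IHC library.

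Genes of the ribbon synapse were higher in part. Of 23 tested, 4 were higher (Otof, Cabp2, Cacna1d and Cnih2) and none was lower, against 1.47% and 1.29% of all genes tested. The median log2 fold change of the list was 0.60. Otof stood at 198, 198 and 186 CPM in the IHCs and at 57.4, 26.1 and 47.6 CPM in the other hair cells (1.97 ± 0.29, adjusted p = 2.7e-06). Cabp2, which regulates calcium channels, stood at 97.8, 42.7 and 23.9 CPM from 31 UMIs against 2 UMIs in all other hair cells, a ratio of 39.5 (95% counting interval 10.0 to 340). Cacna1d, the pore-forming subunit of the hair cell calcium channel, stood at 70.7, 65.3 and 63.2 CPM against 15.6, 17.4 and 10.5 CPM (1.65 ± 0.41, adjusted p = 0.00888). Cnih2, which accompanies glutamate receptors, was higher by 0.94. The calls of Cacna1d and Cnih2 were lost without library 2 and without library 3, which left 2 of 23 genes called, against 4 without library 1. Slc17a8 stood at 22.8, 19.5 and 33.6 CPM against 6.41, 1.31 and 0 CPM, and Ctbp2, whose product ribeye builds the ribbon, at 93.8, 34.4 and 50.6 CPM against 15.5, 18.1 and 26.7 CPM. The IHC profiles of both genes all lay above the others, as they did for 7.63% of all genes tested, and neither gene was called (adjusted p = 0.0855 and 0.153). Cabp2 and Slc17a8 averaged under 10 CPM in the other hair cells, so the filter fixed their direction in advance.

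Known inner hair cell genes rose together. Of the 14 tested, 11 were higher and none was lower, against 1.47% and 1.29% of all genes tested. The median log2 fold change was 1.56, and between 10 and 12 of the list were higher with each library left out. Part of this list was taken from the study's own account of these libraries, so its direction is not independent evidence. Of those called, Brip1, Fam19a3, Cabp2 and Dnajc5b averaged under 10 CPM in the other hair cells and passed the filter only through the IHCs. The direction of these genes was fixed in advance. Nefl and Nefm encode the light and medium neurofilament chains of axons. Nefl stood at 368, 386 and 503 CPM in the IHCs and at 73.0, 69.2 and 59.4 CPM in the other hair cells (2.47 ± 0.23, adjusted p = 4.37e-12), and Nefm at 410, 331 and 405 CPM against 120, 103 and 213 CPM (1.39 ± 0.21). Fam19a3, a secreted chemokine-like protein, stood at 50.7, 90.8 and 60.9 CPM from 44 UMIs, against 2 UMIs in the other hair cells (ratio 56.0, 14.6 to 477). Tnc, an extracellular matrix glycoprotein, stood at 703, 558 and 640 CPM against 313, 275 and 152 CPM (1.38 ± 0.18). Chrng, a subunit of the acetylcholine receptor, was higher by 1.33 ± 0.29, Gpx2, a glutathione peroxidase, by 0.88 ± 0.19, and Dnajc5b, a chaperone of the cysteine string protein family, by 1.62 ± 0.45 on the log2 scale. The call of Dnajc5b was lost with any 1 of the 3 libraries left out. Brip1, Otof, Calb2 and Cabp2 complete the list of 11.

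Brip1, which encodes a DNA helicase, had the largest fitted log2 fold change of the genes tested here that rose in every library. Brip1 stood at 155, 113 and 153 CPM in the IHCs, at 6.68, 1.46 and 4.07 CPM in the other hair cells and at a mean of 12.5 CPM in the non-hair cells (3.42 ± 0.40, adjusted p = 4.08e-09). At 1500 UMIs per cell, 17.0% of the IHCs held a UMI of it (11.3 to 24.1), against 0.665% of the other hair cells and 1.72% of the non-hair cells. Brip1 (chr11:86058138-86201193, minus strand) lies on the same chromosome as Tbx2 (chr11:85832551-85841948, plus strand), with 2 other annotated protein-coding genes, neither of them tested, between them. Bcas3 (chr11:85353167-85826058, plus strand), on the other side of Tbx2, stood at 53.1, 59.2 and 32.7 CPM in the IHCs and at 7.81, 6.50 and 8.03 CPM in the other hair cells (1.71 ± 0.45, adjusted p = 0.0168). It was named after its values were seen, as was the window, and its call was lost without library 2. Within 1 Mb on each side of Tbx2 the annotation lists 23 protein-coding genes, Tbx2 among them. Of these, 15 were tested and 2 were called, both higher and both next to Tbx2 among the genes tested, against 1.47% of all genes called higher. Absence of Tbx2 UMIs was required of the other hair cells, so a gene that varies with Tbx2 is not independent of that gate.

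Of 28 hair cell transcription factor genes tested, 2 were lower (Hes6 and Prox1; 7.14%, against 1.29% of all genes tested) and none was higher, with a median log2 fold change of -0.06. Barhl1 stood at 289, 174 and 403 CPM in the IHCs and at 248, 202 and 192 CPM in the other hair cells (0.35, adjusted p = 0.547), and Gfi1 at 117, 34.9 and 74.0 CPM against 21.3, 51.8 and 69.0 CPM (0.55, adjusted p = 0.606). Both classes overlapped for these genes. Hes6, a Hes family gene expressed in new hair cells, stood at 686, 930 and 1268 CPM against 1397, 1478 and 1860 CPM and was lower by -0.74 ± 0.10 (adjusted p = 6.58e-07). Prox1 stood at 16.7, 9.88 and 8.12 CPM against 102, 75.2 and 45.3 CPM (-1.92 ± 0.41, adjusted p = 0.00163), and its call was lost without library 2. Barhl1 and Gfi1, and Espn, Ikzf2 and Rfx3 below, were named for their known roles after their values were seen.

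Genes of lateral and outer hair cells were lower in the IHCs in part. Of 10 outer hair cell genes tested, 4 were lower and none was higher, with a median log2 fold change of -0.65. Of 14 lateral prosensory genes 3 were lower and none was higher, with a median of -0.69. Over all genes tested, 1.29% were lower and 1.47% were higher. Both lists hold genes that the study itself named from this series, among them Prox1, Bmp2, Tgfbr1, Insm1 and Neurod6. The direction of these lists is therefore not independent evidence. Insm1, a zinc finger transcription factor of early OHCs, stood at 27.2, 31.7 and 22.1 CPM in the IHCs and at 112, 66.9 and 160 CPM in the other hair cells (-1.67 ± 0.36, adjusted p = 0.00163). Neurod6, a basic helix-loop-helix factor, stood at 0, 13.1 and 61.8 CPM against 89.9, 120 and 298 CPM (-2.64 ± 0.36, adjusted p = 2.32e-07). Bcl11b, a zinc finger factor, had no UMI in any IHC and 81 in the other hair cells. With 3 UMIs set for the IHCs it was 10.6-fold lower, a value without the counting error of the 81. The call of Insm1 was lost without library 3. Grp, gastrin-releasing peptide, was lower by a smaller amount, at 442, 519 and 556 CPM against 827, 681 and 922 CPM (-0.66 ± 0.14). Lmod3, which encodes a leiomodin, a protein that nucleates actin, is on the same list and lay the other way, at 35.3, 26.6 and 7.56 CPM from 13 UMIs in the IHCs against no UMI in the other hair cells. With 3 UMIs set for the other hair cells Lmod3 was 11.0-fold higher, a value without the counting error of the 13. It was not called (adjusted p = 0.0609). With a pseudocount of 50 CPM Lmod3 was called higher. It was too low to be tested from summed UMIs, with Tbx2 required or without library 1. Ikzf2, a factor of later OHCs, stood at 21.0, 11.6 and 0 CPM against 9.15, 1.33 and 0 CPM and was too low to be tested. The other hair cells thus carried Insm1 and Bcl11b with little Ikzf2.

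Among lateral prosensory genes, Fgfr3, the receptor that responds to Fgf8 in the lateral domain, stood at 16.7, 21.3 and 8.12 CPM in the IHCs and at 155, 156 and 120 CPM in the other hair cells (-2.63 ± 0.36, adjusted p = 2.44e-07). Bmp2, a secreted ligand, had 3 UMIs in the IHCs and 143 in the other hair cells, a ratio of 18.7 (6.28 to 91.9). Fgfr1 was lower as well, at 34.5, 24.5 and 16.7 CPM against 116, 86.0 and 66.4 CPM (-1.50 ± 0.36, adjusted p = 0.00808). Without library 2 or library 3 Fgfr1 was not called. Tgfbr1 and Mdm1 were not called (adjusted p = 0.299 and 0.101). Fgf10 was the 1 of 9 FGF pathway genes tested that was higher, against 1.47% of all genes tested. It stood at 42.9, 91.6 and 50.2 CPM against 11.9, 12 and 0 CPM (2.02 ± 0.44, adjusted p = 0.0021). Fgf10 had a mean of 60.3 CPM in the non-hair cells, and its call was lost without library 2 and without library 3. Efna5 and Robo2, which encode an ephrin ligand and a Slit receptor, were the 2 of 13 neurotrophin and axon guidance genes called. Both were lower, as were 1.29% of all genes tested. Efna5 had 3 UMIs in the IHCs and 93 in the other hair cells (ratio 12.2, 4.04 to 60.1), and Robo2 stood at 32.0, 18.9 and 4.06 CPM against 94.8, 73.2 and 83.0 CPM. Efna5 was not called without library 2, and Robo2 was not called without library 3.

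Outside the lists, Zfp503 and Cdh1 had the largest fitted falls. Zfp503, a zinc finger protein (chr14:21983959-21989601, minus strand), had 1 UMI in the 147 IHCs and 177 in the 451 other hair cells, a ratio of 69.5 with a counting interval of 12.3 to 2762. Zfp503 stood at 0, 2 and 0 CPM against 144, 103 and 106 CPM (log2 fold change -3.57 ± 0.43, adjusted p = 9.87e-09). Cdh1, E-cadherin, the adhesion protein of epithelial junctions, stood at 13.1, 18.6 and 5.26 CPM against 272, 211 and 116 CPM (-3.20 ± 0.35, adjusted p = 5.48e-10), and the non-hair cells had a mean of 63.4 CPM. The IHCs were thus below both other classes in Cdh1, and Cdh1 was called lower in the IHCs against the non-hair cells too. Tnnc2, a troponin C, stood at 9.23, 15 and 29.3 CPM against 132, 154 and 142 CPM, and Homer2, a postsynaptic scaffold protein, at 21.5, 22.5 and 22.7 CPM against 117, 105 and 84.6 CPM. Ifitm2 (-1.84 ± 0.21), Itih5 (-2.29 ± 0.37), Agpat2 (-1.97 ± 0.45), Wrap73 (-1.91 ± 0.38), Mfge8 (-1.77 ± 0.47) and Spats2l (-1.77 ± 0.46) were lower in all 3 libraries. Chst13, Cbfa2t3, Flrt3, Tgfb1i1 and Hs3st1 had between 1 and 3 UMIs in the IHCs and between 43 and 79 in the other hair cells. Their counting intervals began at 4.16, 2.87, 3.37, 3.16 and 1.89-fold lower. Without library 2 the calls of Homer2, Agpat2, Wrap73, Mfge8, Spats2l, Chst13, Cbfa2t3, Flrt3, Tgfb1i1 and Hs3st1 were lost, of these all but Homer2 and Chst13 were also lost without library 3, and Cbfa2t3 and Hs3st1 were lost without library 1 as well.

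Beside Anxa5, 14 further genes made up the 15 largest rises outside the lists. Ecel1, a membrane metallopeptidase of neurons, stood at 139, 158 and 190 CPM against 12.7, 27.9 and 6.88 CPM (2.81 ± 0.36, adjusted p = 4.41e-08). Gsta4, a glutathione S-transferase, stood at 235, 215 and 234 CPM against 38.9, 31.3 and 38.1 CPM (2.37 ± 0.29), and the non-hair cells had a mean of 315 CPM. Ndrg3 stood at 235, 249 and 272 CPM against 92.7, 61.5 and 46.6 CPM (1.81 ± 0.26). Vim, vimentin, stood at 187, 245 and 314 CPM against 49.1, 78.8 and 67.2 CPM (1.78 ± 0.26), with a mean of 494 CPM in the non-hair cells. Fstl1, a follistatin-like secreted protein, stood at 563, 541 and 119 CPM against 95.2, 130 and 51.7 CPM, so library 3 overlapped the other hair cells, and the non-hair cells had a mean of 880 CPM. Cartpt, a neuropeptide precursor, had 26 UMIs against 2 (ratio 33.1, 8.29 to 288), and Tmem200a had 27 against none. With 3 UMIs set for the other hair cells Tmem200a was 22.9-fold higher, a value without the counting error of the 27. Tctex1d1 (2.69 ± 0.43), Lrrn1 (2.40 ± 0.44), Kcp (2.33 ± 0.44), Trim45 (2.16 ± 0.43), Pgam2 (2.03 ± 0.46), Armc4 (1.76 ± 0.47) and Ralyl (1.74 ± 0.48) complete the 15. Tmem200a, Armc4 and Ralyl were not called without library 2, Pgam2, Armc4 and Ralyl were not called without library 3, and Ralyl was not called without library 1.

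Genes of the cilium and axoneme were higher in part. The kinocilium is a true cilium that guides the hair bundle during development and is later lost from cochlear hair cells. Of 26 such genes tested, 7 were higher and 1 was lower, against 1.47% and 1.29% of all genes tested. The median log2 fold change of the list was 0.48. Cfap126 stood at 183, 218 and 178 CPM in the IHCs and at 49.2, 48.1 and 34.7 CPM in the other hair cells (1.92 ± 0.29, adjusted p = 3.2e-06). Mlf1 stood at 453, 619 and 436 CPM against 232, 265 and 155 CPM (1.19 ± 0.18), and Enkur, which encodes enkurin, at 163, 92.1 and 123 CPM against 38.7, 46.7 and 29.8 CPM (1.47 ± 0.33). Fam183b, Pifo, 1110017D15Rik and 1700007K13Rik were higher by between 1.30 and 1.57. The IHC profiles of these 7 genes all lay above the others, as they did for 7.63% of all genes tested. Cdk5rap2, a protein of the centrosome, was the gene that fell, at 43.0, 107 and 113 CPM against 286, 264 and 253 CPM (-1.60 ± 0.26, adjusted p = 1.17e-05). Enkur and Fam183b were not called without library 3, 1110017D15Rik was not called without library 2, and Pifo and 1700007K13Rik were not called without either of these. The count of 7 was 9 without library 1 and 4 without library 2 or library 3, and when the IHCs also had to hold Tbx2 none of these 7 was called and 1 other gene of the list was.

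The stretches before the starts of these cilium genes are shown because 7 genes of the list were higher and a short motif was found before 5 of these. Regulatory factor X (RFX) proteins bind the X-box of cilium genes, of which GTTGCC is the half-site. The motif was searched on both strands in the 250 bases before each start in the RefSeq promoter table (GRCm38.p6). It was found for 13 of the 25 cilium and axoneme genes that matched by symbol (52.0%), for 5 of the 7 that were higher, and for 11.8% of all 27025 genes of the table. Of the 87 matched genes called higher, 14 held it (16.1%), against 13.2% of the 6695 matched genes tested. The sequences of 3 of the 5 genes follow, 5′ to 3′ along the gene, from chr2:21205366-21205615 (minus strand), chr11:58801961-58802210 (minus strand) and chr3:67373847-67374096 (plus strand), with GTTGCC in capitals.
Enkur: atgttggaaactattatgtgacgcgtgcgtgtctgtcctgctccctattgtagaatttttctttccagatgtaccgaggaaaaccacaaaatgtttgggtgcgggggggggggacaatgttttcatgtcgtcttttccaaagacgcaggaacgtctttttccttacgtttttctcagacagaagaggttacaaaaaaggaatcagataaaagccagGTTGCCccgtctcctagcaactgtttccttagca
Fam183b: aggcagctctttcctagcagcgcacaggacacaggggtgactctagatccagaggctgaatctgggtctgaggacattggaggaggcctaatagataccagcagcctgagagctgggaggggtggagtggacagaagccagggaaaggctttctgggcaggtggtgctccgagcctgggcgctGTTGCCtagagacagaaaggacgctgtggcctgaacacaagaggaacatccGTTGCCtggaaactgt
Mlf1: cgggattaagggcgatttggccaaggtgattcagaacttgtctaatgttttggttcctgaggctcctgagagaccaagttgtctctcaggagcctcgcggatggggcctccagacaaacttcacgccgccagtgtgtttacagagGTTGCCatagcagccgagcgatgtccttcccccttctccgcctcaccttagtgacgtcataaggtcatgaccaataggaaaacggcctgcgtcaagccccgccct

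Other letter strings were searched in the same way, 8 in all. CAGCTG, an E-box, was found for none of the 25 cilium genes and for 13 of the 87 genes called higher (14.9%), against 14.7% of all genes. AGGTGT, a T-box half-site, was found for 2 of the 25, and for 11 of the 87 (12.6%), against 13.6% of all genes. AGGTGTGA, which contains AGGTGT, was found for none of the 25, GTTGCCAT, which contains GTTGCC, for 2, and a longer X-box string that contains both for none. TGACCT, a nuclear receptor half-site, was found for 3, all of them among the 7 that were higher (42.9%), against 12.3% of the genes tested and 15.8% of all genes, and CATTCC, the TEAD site, for 1, against 14.4%. These are matches of letters in a window and do not show binding. Rfx2 stood at 42.0, 5.28 and 6.56 CPM in the IHCs and at 0, 8.01 and 3.45 CPM in the other hair cells, and Rfx3 at 49.1, 36.2 and 27.4 CPM against 78.4, 53.8 and 14.1 CPM, and neither was called (adjusted p = 0.565 and 0.934).

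Of 31 hair bundle actin and Usher genes tested, 3 were higher (9.68%, against 1.47% of all genes tested) and none was lower, with a median of 0.08. Smpx, a small muscle-like protein of the bundle, stood at 1056, 1245 and 962 CPM in the IHCs and at 469, 435 and 291 CPM in the other hair cells (1.45 ± 0.14, adjusted p = 3.07e-12). Dfnb59, pejvakin, stood at 63.3, 175 and 301 CPM against 30.5, 22.0 and 30.3 CPM (2.11 ± 0.35), and Xirp2, an actin-binding protein, at 115, 130 and 85.4 CPM against 36.9, 30.1 and 13.5 CPM (1.75 ± 0.35). The IHC profiles of the 3 genes all lay above the others, as they did for 7.63% of all genes tested. Xirp2 was not called without library 2. Espn, espin, which bundles actin, stood at 529, 418 and 381 CPM against 446, 459 and 538 CPM and was not called (adjusted p = 0.825). Of 5 mechanotransduction genes 1 was higher and 1 lower, against 1.47% and 1.29% of all genes tested. Tmie was higher (1.00 ± 0.29, adjusted p = 0.0383) and Lhfpl5 lower (-0.40 ± 0.11, adjusted p = 0.0229). Tmie was not called without library 2 or library 3, Lhfpl5 was not called with any 1 of the 3 libraries left out, and Cib2 was not called (0.17 ± 0.09, adjusted p = 0.433).

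Of the channel and receptor genes 3 of 11 were called, and of the neurofilament and microtubule genes 6 of 16, against 2.77% of all genes tested. Kcna10, a voltage-gated potassium channel, stood at 42.9, 76.1 and 58.7 CPM in the IHCs and at 4.35, 11.7 and 0 CPM in the other hair cells (2.22 ± 0.45, adjusted p = 0.000737). Chrna9 and Chrna10, the subunits of the efferent acetylcholine receptor, were not called (0.62 ± 0.27, adjusted p = 0.299, and -0.80 ± 0.35, adjusted p = 0.292), and Sstr2, a somatostatin receptor, was lower at 29.4, 49.5 and 52.1 CPM against 115, 123 and 142 CPM (-1.37 ± 0.32, adjusted p = 0.00393). In all, 2 of 11 channel and receptor genes were higher (Kcna10 and Chrng) and 1 was lower, with a median of -0.20. Kcna10 and Sstr2 were not called without library 2, and Sstr2 was not called without library 3. Beside the neurofilament genes, Svbp (0.81 ± 0.12), Stmn1 (0.61 ± 0.11) and Tuba1a (0.34 ± 0.09), which act on or form microtubules, were higher and Tubb2b was lower (-0.66 ± 0.18), so that 5 of 16 rose and 1 fell, with a median of 0.37. Tuba1a was not called without library 3 and Tubb2b was not called without library 2.

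**Figure D3:**
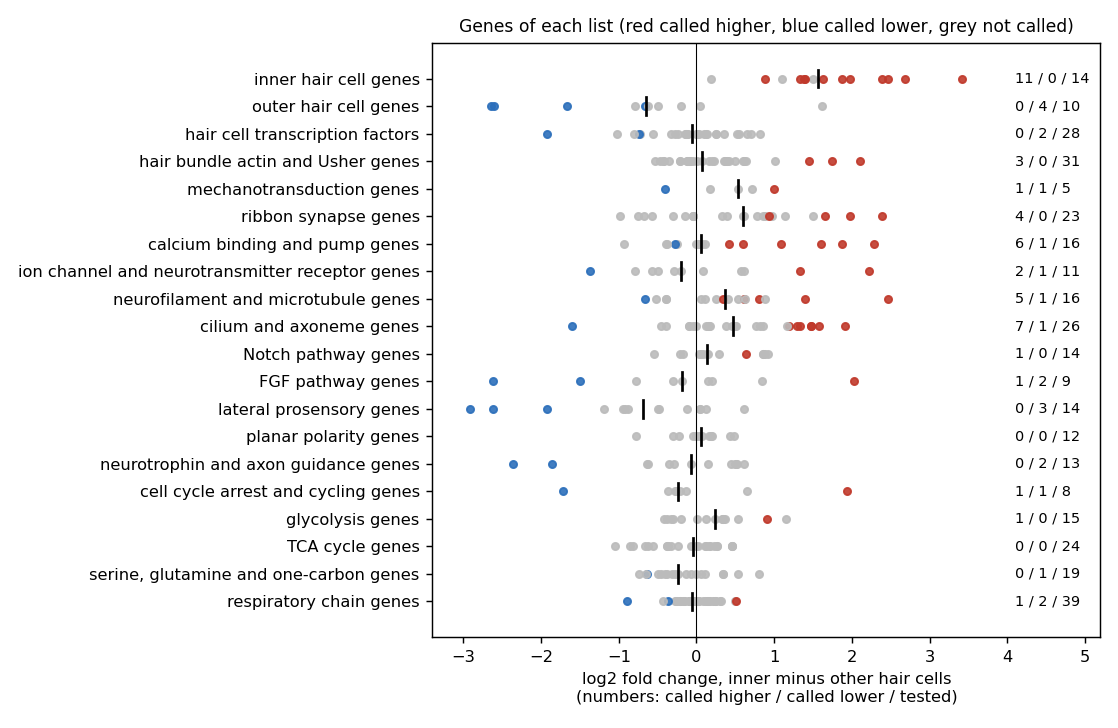
Log2 fold change between IHCs and other hair cells for each gene tested of 20 lists, with red for called higher, blue for called lower, grey for not called and a black bar at the median of the list; the numbers at the right give genes called higher, called lower and tested. The inner hair cell genes lie to the right of 0, with 11 of 14 called higher, against 1.47% of all genes tested. The lateral prosensory and outer hair cell lists have medians of -0.69 and -0.65.

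Of 8 cell cycle genes tested, 1 was higher and 1 was lower, both of them inhibitors, against 1.47% and 1.29% of all genes tested. The median log2 fold change was -0.24. Cdkn2d, an INK4 family inhibitor that keeps hair cells out of the cycle, stood at 206, 295 and 381 CPM in the IHCs and at 38.6, 76.5 and 99.7 CPM in the other hair cells (1.93 ± 0.25, adjusted p = 6.58e-08). Cdkn1c, a CIP/KIP family inhibitor, stood at 576, 306 and 401 CPM against 1258, 1295 and 1635 CPM (-1.72 ± 0.14, adjusted p = 7.02e-15). At 1500 UMIs per cell, 28.6% of the IHCs held Cdkn2d and 36.7% held Cdkn1c, against 9.76% and 74.7% of the other hair cells. Cdkn2d lay wholly above and Cdkn1c wholly below the other hair cells, as did 7.63% and 5.76% of all genes tested. Cdkn1a and Cdkn1b were not called (adjusted p = 0.0843 and 0.871).

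Of 14 Notch pathway genes, Dlk2, a Notch ligand-like protein, was called (0.64 ± 0.16, adjusted p = 0.0156), with profiles that overlapped and a call that was lost without library 1 and without library 3. None of 12 planar polarity genes and none of 24 TCA cycle genes was called by limma, and 2 of each list had an unadjusted p under 0.05. Of 15 glycolysis genes, Pfkl was higher (0.91 ± 0.26, adjusted p = 0.0339), at 181, 153 and 221 CPM against 80.3, 72.9 and 134 CPM, but it was not called with any 1 of the 3 libraries left out. Of 19 serine, glutamine and one-carbon genes, Psph, phosphoserine phosphatase, was lower, at 1122, 868 and 1386 CPM against 1597, 1434 and 2225 CPM (-0.63 ± 0.10, adjusted p = 3.38e-06). Among respiratory chain genes, Atp5g1, a subunit of the ATP synthase, was higher (0.51 ± 0.12) and Cox7a2, a subunit of cytochrome c oxidase, was lower (-0.36 ± 0.11). Neither was called without library 1 or without library 2, and Cox7a2 was not called without library 3. Of 84 ribosomal protein genes, 22 were lower and none was higher, with a median log2 fold change of -0.23. Over all genes tested, 1.29% were lower and 1.47% higher, with a median of -0.00151. The ribosomal count is for the main fit alone.

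Markers of neighbouring supporting cells moved with the IHC class. Inner phalangeal and border cells surround the IHCs, and Kölliker's organ lies medial to them. Of 8 inner phalangeal and border cell genes tested, 4 were higher in the IHCs than in the other hair cells and 1 was lower. Over all genes tested, 1.47% were higher and 1.29% were lower. Gjb2, the gap junction protein connexin 26, stood at 393, 446 and 109 CPM against 26.3, 57.0 and 41.6 CPM (2.48 ± 0.30, adjusted p = 1.34e-08), and the non-hair cells had a mean of 591 CPM. Slc1a3, a glutamate transporter, stood at 59.6, 56.7 and 73.8 CPM against 6.01, 22.9 and 1.36 CPM (2.01 ± 0.44). Matn4 stood at 117, 164 and 5.26 CPM against 3.64, 7.78 and 0 CPM, and Fabp7 at 288, 134 and 0 CPM against 4.0, 65.6 and 1.85 CPM. In library 3, Matn4 was at 5.26 CPM and Fabp7 at 0. S100a6 was lower, at 0, 34.6 and 45.1 CPM against 61.9, 62.6 and 119 CPM. Without library 2 Matn4 and Fabp7 were not called, without library 3 Slc1a3 and S100a6 were not called, and without library 1 Fabp7 and S100a6 were not called.

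The summed level of all 8 phalangeal and border cell markers was 1012, 993 and 296 CPM in the IHCs, 227, 331 and 262 CPM in the other hair cells and 974, 989 and 1087 CPM in the non-hair cells. In libraries 1 and 2 the IHCs thus reached the level of the non-hair cells, and in library 3 they did not. Of 12 tested markers of Kölliker's organ and interdental cells, 4 were higher (Calb1, Sparcl1, Mia and Tecta) and 1 was lower (Smoc2). Over all genes tested, 1.47% were higher and 1.29% were lower. The summed level of the list was 3076, 3753 and 3254 CPM in the IHCs and 2439, 2468 and 1889 CPM in the other hair cells. In the non-hair cells it was 11873 to 15226 CPM. Tecta stood at 289, 259 and 42.1 CPM in the IHCs against 60.7, 61.5 and 58.6 CPM, so it was higher in libraries 1 and 2 alone, and it was not called without either of these. Mia and Smoc2 were not called without library 2 or library 3. A UMI of Gjb2, Slc1a3, Matn4 or Fabp7 was found in 82 of the 147 IHCs (55.8%), in 16.0% of the other hair cells and in 65.3% of the non-hair cells. With all such cells left out of every class, 22, 23 and 20 IHCs were left in libraries 1, 2 and 3. In this setting 122 genes were called, of which 109 were among the 244. This comparison was added after the data were seen. Without these cells Anxa5 (3.15), S100a1 (1.63), Pvalb (1.15), Nefl (2.55), Otof (2.28), Brip1 (3.77), Cdh1 (-3.94) and Zfp503 (-3.70) were still called. Calls were lost with a log2 fold change that shrank to 0.45 for Sparcl1, 0.97 for Cacna1d, 1.15 for Fstl1, 1.42 for Cartpt and 1.59 for Tmem200a, and Tecta turned to -0.26. Among the other genes called higher above, Fgf10, Kcna10, Chrng, Xirp2, Tmie, Kcp, Pgam2, Ralyl, Bcas3, Cnih2, Dnajc5b, Atp2b1, Calm2, Dlk2, Pfkl, Mia, 1110017D15Rik and 1700007K13Rik were not called without these cells. Of these, the log2 fold change grew for Fgf10 (2.14), Tmie (1.15), Pgam2 (2.11), Ralyl (1.88), Bcas3 (2.20), Cnih2 (1.02), Dnajc5b (1.84) and 1700007K13Rik (1.49). It shrank for the others. Among those called lower, Grp, Fgfr1, Homer2, Agpat2, Mfge8, Spats2l, Cbfa2t3, Flrt3, Hs3st1, Tgfb1i1, Lhfpl5, Pcp4, Tubb2b, Cox7a2, S100a6 and Smoc2 were not called. The fall was larger than before for Agpat2 (-2.24), Mfge8 (-1.82), Cbfa2t3 (-2.13), Flrt3 (-1.84) and Hs3st1 (-1.90). It was also larger for Tgfb1i1 (-1.89), Tubb2b (-0.72), Cox7a2 (-0.45) and S100a6 (-1.65), and smaller for the others. The part of supporting cell RNA in the remaining differences was not tested.

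In the other marker lists no gene was called higher. Of pillar and Deiters cell markers, none of 8 was higher and 2 were lower (Fgfr3 and Prox1), against 1.47% and 1.29% of all genes tested. The list summed to 1645 to 2493 CPM in the IHCs and 2047 to 2202 CPM in the other hair cells. Markers of lateral non-sensory cells summed to 437, 842 and 572 CPM against 341, 458 and 594 CPM. Those of glia summed to 106, 60.7 and 20.2 CPM against 58.9, 48.1 and 21.7 CPM. Both sums were thus higher in the IHCs of libraries 1 and 2 and not of library 3, and this was not tested. Roof cell markers summed to 40.2 to 117 CPM against 47.3 to 463 CPM. Spiral ganglion neuron markers summed to 439 to 550 CPM against 476 to 509 CPM, and mesenchyme markers to 0 to 5.11 CPM against 4.96 to 22.2 CPM. Of the neuron markers, Neurod1, Prph, Nhlh2 and Ntrk3 had no UMI in any IHC. Of the lists of lateral non-sensory cells, roof cells, neurons and glia, none of 5, 1, 3 and 2 genes tested was called by limma, with 1, 1, 1 and 0 at an unadjusted p under 0.05, and no mesenchyme gene was high enough to be tested. Blood cell markers summed to 30.1 to 67.3 CPM in the IHCs and to 38.4, 2093 and 35.9 CPM in the other hair cells. Hba-a1 was called lower (-2.34 ± 0.51), with 744 CPM in the other hair cells of library 2 against 20.6 to 22.1 CPM in the others, and that call was lost without library 2. None of 10 stress genes was called by limma, and 2 had an unadjusted p under 0.05.

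**Figure D4:**
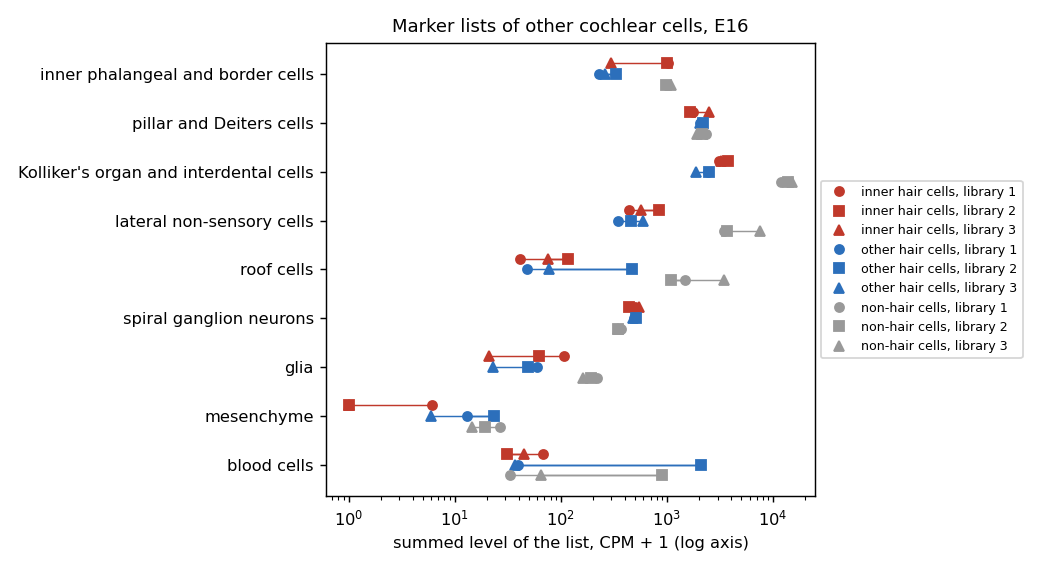
Summed level of each marker list of other cochlear cells, as CPM + 1 on a log axis, for IHCs (red), other hair cells (blue) and non-hair cells (grey), with a circle for library 1, a square for library 2 and a triangle for library 3. The inner phalangeal and border cell markers of the IHCs reach the non-hair cells in libraries 1 and 2 but not in library 3, and the blood cell markers of the other hair cells reach 2093 CPM in library 2.

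Among the IHCs themselves, the 46 cells with a UMI of Tbx2 and the 101 without it had means of 185 and 200 CPM of Otof, 265 and 473 CPM of Nefl and 365 and 150 CPM of Tecta. No cell with Tbx2 held Neurod6, and the mean of Insm1 was 7.59 CPM in these cells and 37.6 CPM in those without Tbx2. These values are descriptions of cells from the same 3 libraries and were not tested. With Tbx2 required of every IHC, 74 genes were called, 59 of them among the 244.

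The same gate applied at other ages gave 34 cells at E14 (12 and 22 per library), 204 at P1 (53, 36, 50 and 65) and 81 at P7 (40 and 41). Other hair cells numbered 18 and 19 per library at E14, 200, 123, 175 and 371 at P1 and 83 and 98 at P7. Levels at E14 thus rest on few cells in both classes. The ages were normalized in separate tables, so their levels are set side by side with no test, and age cannot be told apart from table. Mean Anxa5 was 1962, 1514, 1001 and 850 CPM in the IHCs at E14, E16, P1 and P7, and 498, 180, 227 and 1013 CPM in the other hair cells, so that the mean of the IHCs was the lower of both at P7. S100a1 was likewise at 3324 CPM in the IHCs and 3439 CPM in the other hair cells at P7. Otof was at 37.8, 194, 1086 and 2108 CPM in the IHCs and at 0, 43.7, 319 and 403 CPM in the other hair cells, and Pvalb at 197, 1906, 3718 and 5800 CPM against 160, 884, 1608 and 1636 CPM. Brip1 was at 136, 140, 56.4 and 20.5 CPM in the IHCs and at 30.4, 4.07, 1.20 and 0.601 CPM in the other hair cells.

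Among genes that were lower in the E16 IHCs, Cdh1 was at 23.1, 12.3, 13.2 and 12.4 CPM in the IHCs and at 183, 200, 176 and 48.7 CPM in the other hair cells at the same 4 ages. Zfp503 was at 0, 0.667, 0 and 3.80 CPM against 86.9, 118, 77.9 and 104 CPM. Cdkn1c was at 210, 428, 202 and 10.8 CPM against 847, 1396, 791 and 7.44 CPM, so that both classes were low at P7. Of the supporting cell genes, Gjb2 was at 506, 316, 63.6 and 137 CPM in the IHCs and at 97.1, 41.6, 44.2 and 104 CPM in the other hair cells.

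**Figure D5:**
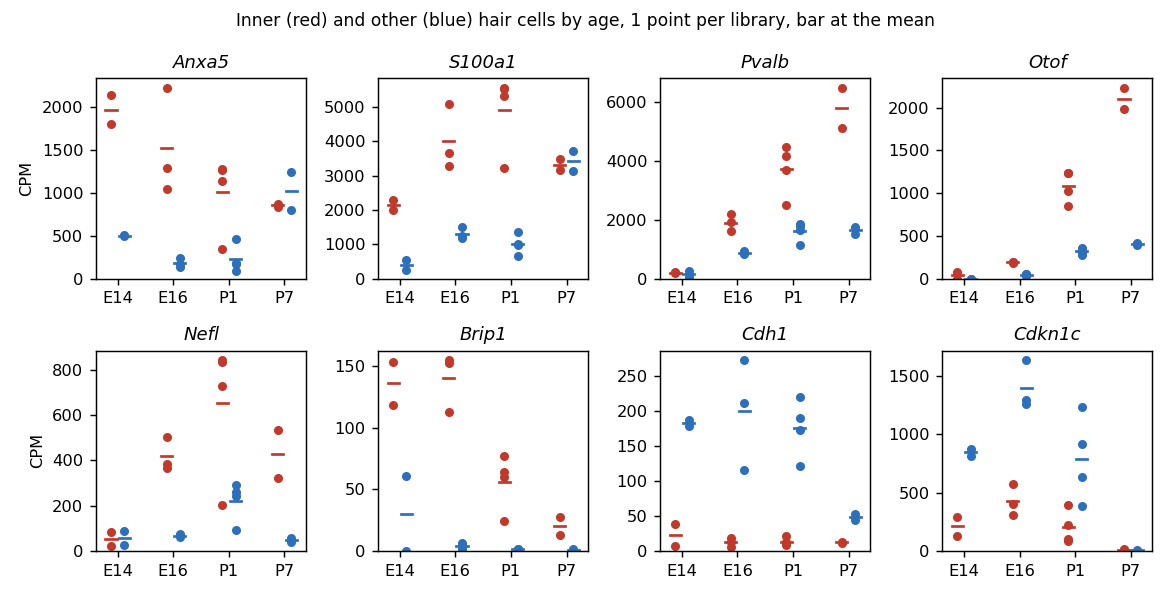
Levels of 8 genes in CPM by age, with 1 point per library for IHCs (red) and other hair cells (blue) and a bar at the mean. Otof and Pvalb are highest in the P7 IHCs, Brip1 is highest at E14 and E16, and Anxa5 and S100a1 do not separate the classes at P7.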

How the data were processed

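The authors aligned reads with Cell Ranger 2.1.1 to mm10 and normalized them with Seurat 2.0, per the submitters' processing notes. The deposited tables hold natural log values, the natural log of 1 plus 10000 times a gene's fraction of all UMIs in its cell, with 1 table per age. UMI counts were worked back from them; 100% of values above 0 gave a whole count within 2%. Each class then had 1 profile for each of the 3 E16 libraries, the mean CPM of its cells. No column of another series was used. The lowest E16 cell held 1499 UMIs, and the 3 libraries held 1247, 2813 and 3901 cells and 3828399, 10274769 and 11797815 UMIs.

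The test covered genes whose 6 profiles averaged 10 CPM or more and was made on log2(CPM + 10) with limma 3.58.1 (R 4.3.3; lmFit, eBayes with a mean trend), library as a block, since each library gave cells to both classes (same-library profiles deviated together in the comparison of hair cells with r of 0.0849, 0.14 and 0.331), and Benjamini-Hochberg adjustment over all genes tested, threshold 0.05. Fold changes on this scale understate those of low genes. The libraries were separate collections. With the block, p-values measure how the difference between the classes varied over 3 pools, not the spread between pools. That variance was largely shared between genes of like level (58.7 degrees of freedom per gene against the other hair cells). The 7 gate genes (Fgf8, Tbx2, Atoh1, Myo6, Pou4f3, Ccer2 and Acbd7) were removed before adjustment. Members, gate and 30 gene lists were chosen with earlier results of these data known. Named were up to 5 genes of each list with the largest fold change, any other list gene called, and the 15 largest rises and falls outside the lists with the same sign in all 3 libraries. Mitochondrial, ribosomal, haemoglobin, histone, Gm-numbered and Rik genes were left out of those 15. Shares have exact (Clopper-Pearson) 95% intervals for counting error. For equal depth, cells were drawn to 1500 UMIs (1 cell was shallower). Fits were tested on simulated data. Gene positions came from GENCODE vM21 (GRCm38, the assembly of mm10) and promoters from RefSeq (GRCm38.p6). A result among the respiratory chain genes is not reported here.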

Additional observations from a re-analysis of the deposited data

How the results depend on the processing

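Against the other hair cells, 130 genes were higher and 114 lower (244 in all). Without a filter on low values the counts were 73, 47 and 120, and with a pseudocount of 1 CPM 76, 60 and 136. Without the replicate block, which pairs the classes of a library, they were 41, 25 and 66. Without a variance trend they were 1, 1 and 2. With Tbx2 required of the IHCs they were 34, 40 and 74, at 1500 UMIs per cell 69, 63 and 132, and without cells holding Gjb2, Slc1a3, Matn4 or Fabp7 (added after seeing the data) 61, 61 and 122. From the deposited ln values 230 were higher. With 1 library left out, 59 to 139 were higher, 44 to 106 lower and 103 to 245 called in all, with 103 without library 2 and 159 without library 3. Without a filter more genes were tested. Fewer IHCs entered with Tbx2 required (12, 27 and 7 by library) and at 1500 UMIs per cell (30, 41 and 27). Without the cells holding supporting cell genes, 22, 23 and 20 IHCs entered. The cause of the smaller counts was not tested.

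Against the non-hair cells (1017 higher, 1008 lower, 2025 in all), a minimum of 50 CPM gave 566, 544 and 1110, with fewer genes tested. The Tbx2 gate gave 360, 427 and 787 and the removal of cells with supporting cell genes 556, 666 and 1222. Without a filter 641 were higher, and 659 were lower with a pseudocount of 1 CPM, 656 without the replicate block (1485 in all) and 625 from the ln values.

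Of 99 called genes named, 98 kept their direction under each alternative that gave a value; Tecta turned to -0.26 without the cells holding supporting cell genes. Brip1 and Zfp503 were called under each alternative run, 26 genes, these included, under each but the one without a trend, and 47 with each library left out. The share of E16 cells in the IHC gate was 0.962%, 0.960% and 0.179% with Tbx2 required, and 2.41%, 1.46% and 0.692% at 1500 UMIs per cell. Depth limits genes with few UMIs in 147 IHCs, where 3 UMIs are worth 4.66 CPM.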
